A study of Mus musculus with 8 samples.

Results

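The interferon response genes described here are 39 mouse genes whose transcription is known to be driven by interferons. They were taken as a list of names, compiled with earlier results of these data known, and were divided into 26 genes known mainly as targets of type I interferon (Irf7, Irf9, Stat2, Isg15, Ifit1, Ifit2, Ifit3, Oas1a, Oas2, Oas3, Oasl1, Oasl2, Mx1, Mx2, Usp18, Ifi44, Ifih1, Ddx58, Dhx58, Rsad2, Ifi35, Ifitm3, Trim30a, Bst2, Zbp1 and Xaf1) and 13 known mainly as targets of interferon gamma (Irf1, Cxcl9, Cxcl10, Cxcl11, Gbp2, Gbp3, Gbp6, Gbp7, Iigp1, Irgm1, Igtp, Ifi47 and Tgtp1). A probe was matched to 36 of the 39, all but Mx1, Mx2 and Cxcl11. The probe of Tgtp1 was well above background on only 1 array and was not tested. The remaining 35 genes, 24 type I and 11 interferon gamma targets, stood among 21303 genes tested in all. Of these, 23 type I and 10 interferon gamma targets were well above background on all 8 arrays. Ifit2 was well above background on 6 arrays (not on Control male 2 or Control female 1) and Gbp7 on 5 (not on Control female 1, Western male 2 or Western female 1).

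The arrays measured RNA of small intestine, taken from C57BL/6J Min/+ mice. All mice, controls included, carried this heterozygous Min mutation of the tumour suppressor gene Apc, which gives rise to intestinal tumours, so the series holds no mice without it. Males and females received either the semisynthetic AIN-93G diet, unmodified, or a Western-type diet made from it, richer in fat and poorer in fibre, calcium, folate and vitamin D. Milk fat made up 66.4% of the fat of that diet, and rapeseed and sunflower oil made up 33.6%. The 4 groups, Control male, Control female, Western male and Western female, had 2 arrays each, named 1 and 2 here, and each array carried RNA of 1 to 3 mice. The age of the mice is not stated, and feeding is labelled as lasting 18 months. Nothing in the labels says that the 2 arrays of a group came from separate animals. A p-value here therefore reflects the spread among arrays alone, and that spread may be technical. In RNA of a tissue with many cell types, fewer cells of a type and less RNA per cell cannot be told apart.

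Interferons are secreted signals of antiviral and antibacterial defence. Type I interferons bind a receptor of the subunits Ifnar1 and Ifnar2, and the kinases Jak1 and Tyk2 then activate the complex ISGF3, which includes Stat2 and Irf9. ISGF3 binds interferon-stimulated response elements (ISRE) in the promoters of antiviral genes such as the Ifit, Oas and Mx genes. Interferon gamma, made by T cells and natural killer cells, binds another receptor and acts through gamma-activated sites (GAS) in promoters, and through Irf1. Its targets include the guanylate-binding proteins and immunity-related GTPases, which act against pathogens inside cells, and chemokines that attract T cells. Irf7 is itself induced by type I interferon and switches on further interferon genes. In the gut, resident microbes keep a low level of this signalling active.

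Values are log2 of an array's processed signal minus the 75th percentile of that array, so that 0 is the signal of a probe at the 75th percentile. They are compared between arrays for 1 probe and, apart from summed levels of cell markers, never between genes. The 75th percentile signal lay between 488 and 907, and 55.1% to 61.9% of probes were well above background on 7 arrays. Control female 2 stood apart: 75.6% of its probes were well above background, and its score on the first principal component (43.4% of the variance) was -146, against -2.09 to 33.4 on the others. The label of Control female 1 went against its Y-linked transcripts. Ddx3y measured -0.46 there, against -1.05 to -0.68 on the male arrays and -7.57 to -6.91 on the other 3 female arrays. The name given to its deposited file also begins like those of Western diet arrays, so both its sex and its diet are uncertain. This array is therefore called the library labelled Control female 1, and the main results that use it or Control female 2 are also given without it. All 6 epithelial markers (Epcam, Vil1, Cdh1, Krt20, Lgals4 and Fabp2) were well above background on all 8 arrays.

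Cores of the elements through which the 2 kinds of interferon are known to act were found upstream of part of each gene group. The ISRE core was the more frequent of the 2 in both groups. In RefSeq (build GRCm38.p6) a promoter window was matched for 20 type I and 10 interferon gamma targets, and not for Oas2, Mx1, Mx2, Usp18, Dhx58, Zbp1, Cxcl11, Gbp6 and Iigp1. The 250 bases before each start were searched on both strands for the core GAAANNGAAA of an ISRE and the core TTCNNNGAA of a GAS. The ISRE core was present for 9 of 20 type I targets (45%), for 7 of 10 interferon gamma targets (70%) and for 3.46% of all 27025 genes with a window. The GAS core was present for 3 of 20 type I targets (15%), for 4 of 10 interferon gamma targets (40%) and for 8.13% of all genes. The stretches around the matches of 8 genes whose values are given below read as follows, 5′ to 3′ on the strand of the gene, with the matched core in capitals (on the opposite strand the ISRE core appears as its reverse complement, the GAS core reads alike on both, and overlapping matches run together).
Isg15, chr4:156200850-156200921 (-): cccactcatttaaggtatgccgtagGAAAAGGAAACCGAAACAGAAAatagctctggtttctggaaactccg
Ifit1, chr19:34640760-34640838 (+): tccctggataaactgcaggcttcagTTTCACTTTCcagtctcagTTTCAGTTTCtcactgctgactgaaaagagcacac
Rsad2, chr12:26456538-26456597 (-): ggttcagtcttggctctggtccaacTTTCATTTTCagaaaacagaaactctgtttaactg
Oas1a, chr5:120907526-120907648 (-): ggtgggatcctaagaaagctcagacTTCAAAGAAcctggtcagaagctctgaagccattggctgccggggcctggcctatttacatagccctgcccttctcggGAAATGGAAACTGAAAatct
Gbp2, chr3:142620579-142620638 (+): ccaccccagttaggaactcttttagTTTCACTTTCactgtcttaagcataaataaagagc
Gbp3, chr3:142559974-142560039 (+): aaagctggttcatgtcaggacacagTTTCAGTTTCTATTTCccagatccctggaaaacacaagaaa
Igtp, chr11:58199486-58199555 (+): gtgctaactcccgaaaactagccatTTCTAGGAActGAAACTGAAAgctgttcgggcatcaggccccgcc
Irf1, chr11:53769899-53769957 (+): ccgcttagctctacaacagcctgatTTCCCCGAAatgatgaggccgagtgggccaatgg
Isg15, Ifit1, Oas1a and Gbp3 held more than 1 ISRE core, Oas1a and Igtp held both elements, and Irf1 held a GAS core and no ISRE core. Among the genes given on every array, the windows of Irf7, Irf9, Ifi44, Ifi47 and Cxcl9 held neither set of letters.

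The series compared a Western-type with a control diet in male and female Min mice, and diet is taken first. The type I targets lay higher on the Western diet in 22 of 24 genes, with a median log2 difference of 0.25, while 6 of 11 interferon gamma targets lay higher, with a median of 0.16. Across all genes tested 39.8% lay higher, with a median of -0.06. With quantile normalization in place of the 75th percentile the share of all genes lying higher became 57% and their median 0.04, and the type I targets had 22 of 24 higher with a median of 0.30. No member passed an adjusted p of 0.05 (limma with Benjamini-Hochberg adjustment over 21303 genes), nor did any other gene (0% called). At an unadjusted p under 0.05, limma called 4.35% of all genes and 0 of the 35 members. Without the library labelled Control female 1, 16 of 24 type I targets lay higher, with a median of 0.06, and the interferon gamma median was -0.01. Without Control female 2 the type I median was 0.41, with 22 of 24 higher, and the interferon gamma median 0.21, with 10 of 11 higher. The interferon gamma median was -0.11 without Western male 1 (4 of 11 higher), within 0.01 of 0 without either of the Western female arrays and 0.31 without Western male 2 (11 of 11 higher). With the slide as a block it was 0.45 (10 of 11 higher). Within slide 1, which held 1 array of every group, the medians were 0.51 (type I) and 0.47 (interferon gamma, 10 of 11 higher). Slide 1 held the library labelled Control female 1, the lowest array for 14 members, and Western male 1, the highest for 17. The plot of the diet difference in each sex shows the values that these averages combine.

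**Figure D1:**
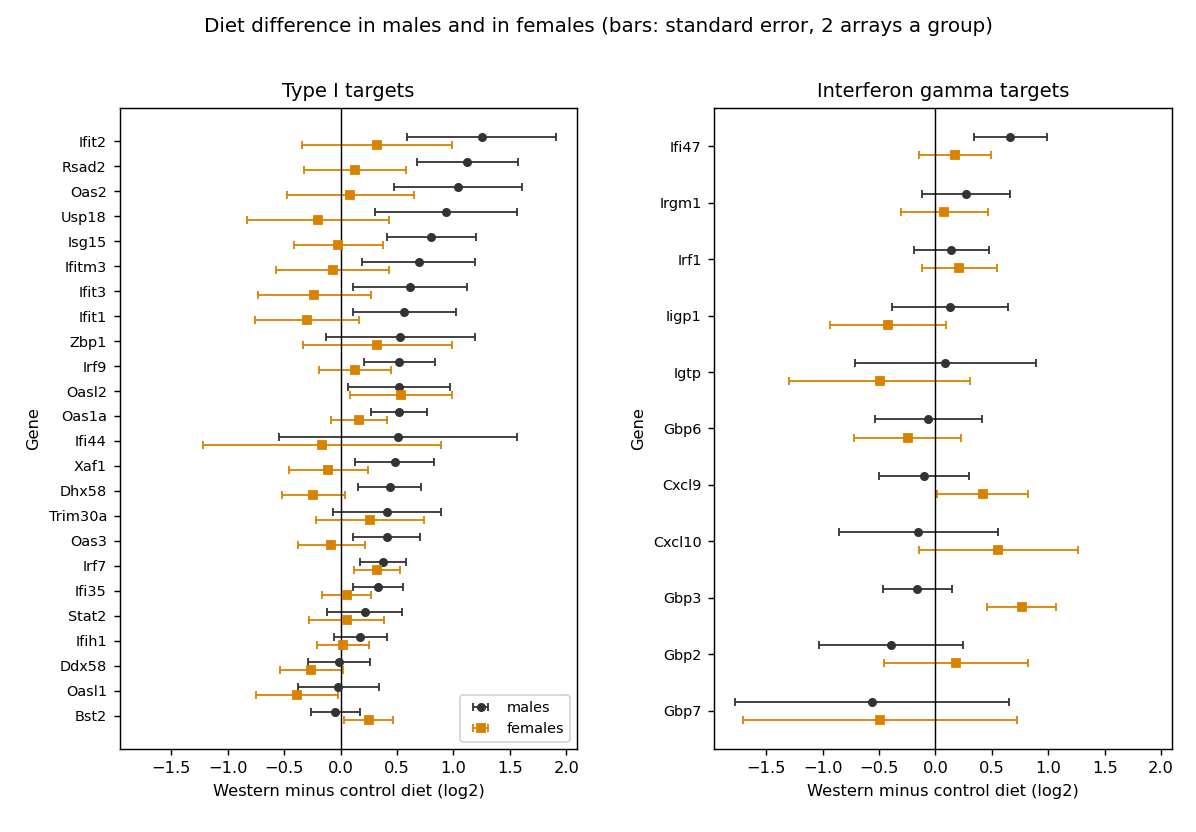
Western minus control diet (log2, horizontal axis) for each of 24 type I targets and 11 interferon gamma targets (vertical axis), with circles for males, squares for females and bars for the standard error of the fit with 2 arrays a group. In males 21 of 24 type I targets lie to the right of 0 and 5 of 11 interferon gamma targets do; in females the counts are 13 of 24 and 7 of 11.

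In males the type I targets had a median diet difference of 0.51 on the log2 scale, with 21 of 24 higher on the Western diet, against a median of -0.01 and 47.8% higher across all genes. The interferon gamma targets had a median of -0.07 in males, with 5 of 11 higher, and of 0.02 with quantile normalization. Both Western male arrays lay above both Control male arrays for 15 of 35 members (42.9%), and 11.6% of all genes did so. These were Irf7, Irf9, Isg15, Ifit1, Ifit2, Ifit3, Oas1a, Oas2, Oas3, Oasl2, Usp18, Dhx58, Rsad2 and Ifi35 among the type I targets and Ifi47 alone among the interferon gamma targets. The reverse order was found for 1 member, Cxcl10, and for 13.3% of all genes. Limma called no gene in males at an adjusted p of 0.05 (0% of all genes), and at an unadjusted p under 0.05 it called 1.3% of all genes and 1 member, Rsad2. When each male array was left out in turn, the type I median in males lay between 0.32 (without Control male 2) and 0.65 (without Western male 2), and within slide 1 it was 0.47. Western male 2 lay on slide 2 and Control male 2 on slide 3, which was scanned on another day. For that pair diet cannot be told apart from slide and scan day. The interferon gamma median in males was -0.42 without Western male 1, -0.18 without Control male 2, -0.11 without Control male 1 and 0.44 without Western male 2.

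In females the type I targets had a median diet difference of 0.04, with 13 of 24 higher on the Western diet, and the interferon gamma targets one of 0.17, with 7 of 11 higher. The type I median turned to -0.01 with normexp background correction. Across all genes the median in females was -0.11 and 36.6% were higher; with quantile normalization these were 0.06 and 57.5%, and the type I median was 0.09. The female value depended on which control array was kept. Without the library labelled Control female 1, 4 of 24 type I targets were higher with a median of -0.35, and without Control female 2, 20 of 24 were higher with a median of 0.39. Of all genes 37.1% were higher in the first case (median -0.14) and 44% in the second (median -0.05). The type I median was -0.10 without Western female 1 and 0.17 without Western female 2. Within slide 1, where the control was the library labelled Control female 1, the type I median in females was 0.51. Within slide 3, which held the other array of each female group, it was -0.42. Across all genes the medians were -0.04 within slide 1 and -0.22 within slide 3. The interferon gamma median in females also depended on single arrays, at -0.16 when the library labelled Control female 1 was left out, 0.47 when Control female 2 was, 0.10 when Western female 1 was and 0.06 when Western female 2 was. Both Western female arrays lay above both Control female arrays for 4 members, Irf7, Bst2, Cxcl9 and Gbp3 (9.44% of all genes), and below them for 1, Iigp1 (21.9% of all genes). With all arrays kept, no gene was called in females at an adjusted p of 0.05 (0%). At an unadjusted p under 0.05 limma then called 5.14% of all genes and 1 member, Gbp3. The 0% depended on keeping both Control female arrays: without either of them, genes outside the members passed. Such a fit leaves 1 array in that group, so its calls are not counted here.

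The diet difference was lower in females than in males for 22 of 24 type I targets, with a median difference between the sexes of -0.44, and for 5 of 11 interferon gamma targets, with a median of 0.07. The median over all genes was -0.13, with 35.4% higher; with quantile normalization it was 0.04, with 54.2% higher, and the type I median was -0.31. Tested gene by gene with all arrays kept, the difference between the sexes passed an adjusted p of 0.05 for no gene (0%). Limma then called 1.62% of all genes and 0 members at an unadjusted p under 0.05, so a sex difference in the response to diet was not shown for any member. The 0% did not hold for genes outside the members without the library labelled Control female 1, a fit that leaves 1 array in that group. The type I median of this comparison moved to -0.15 without Control female 2 and to -0.72 without the library labelled Control female 1, and within slide 1 it was 0.08. The interferon gamma median of this comparison took both signs, from -0.68 without Western male 2 to 0.45 without Western male 1.

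Irf7, the transcription factor that amplifies the type I response, was the 1 member whose arrays did not overlap between the diets. It measured 1.31 and 1.60 in Control males, 1.41 (the library labelled Control female 1) and 1.56 in Control females. On the Western diet it measured 1.83 and 1.84 in males and 1.83 and 1.78 in females. All 4 Western arrays thus lay above all 4 control arrays, and the Western arrays lay closer together than the control arrays. The difference was 0.35 ± 0.14 (SE, n = 4 arrays a diet), a 1.27-fold change, with an unadjusted p of 0.0512 and an adjusted p of 0.994 in limma. Non-overlap with the Western diet higher was found for 0.827% of all genes and with the Western diet lower for 2.35%, of which none was a member. Leaving out the library labelled Control female 1 gave 0.31, with an adjusted p of 0.548 in limma, and leaving out Control female 2 gave 0.39. It was 0.38 ± 0.20 in males and 0.32 ± 0.20 in females (SE, n = 2 arrays a group).

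Irf9, the DNA-binding subunit of ISGF3, measured 1.64 and 1.82 on the Control male arrays and 2.58 and 1.93 on the Western male arrays. In females it measured 1.67 (the library labelled Control female 1) and 2.20 on the control diet and 2.23 and 1.90 on the Western diet. The male arrays did not overlap between the diets and the female arrays did. Stat2, its partner, measured 0.95 and 0.43 in Control males, 0.45 (the library labelled Control female 1) and 1.24 in Control females, 0.84 and 0.96 in Western males and 1.00 and 0.79 in Western females. The control arrays thus spanned all Western values of Stat2. The diet difference of Irf9 was 0.33 ± 0.23 and that of Stat2 0.13 ± 0.23 (SE, n = 4). Without the library labelled Control female 1 they were 0.20 and -0.06, and without Control female 2 they were 0.46 and 0.33. Irf1, the factor that mediates much of the interferon gamma response, measured 4.81 and 5.38 in Control males, 4.50 (the library labelled Control female 1) and 5.25 in Control females, 5.11 and 5.35 in Western males and 5.14 and 5.03 in Western females. Its diet difference was 0.18 ± 0.24, with arrays that overlapped, and it was -0.01 without the library labelled Control female 1 and 0.36 without Control female 2.

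Among the effectors of the type I response, Rsad2 encodes viperin, which blocks the replication of many viruses. It measured -1.90 and -1.25 in Control males and -0.87 and -0.04 in Western males. In females it measured -1.81 (the library labelled Control female 1) and -0.88 on the control diet and -1.34 and -1.10 on the Western diet. Western male 2 was the highest array of the series for Rsad2, Western male 1 was level with Control female 2, and the Western female arrays lay between the Control female arrays. The difference in males was 1.12 ± 0.45 (SE, n = 2 arrays a group), a 2.18-fold change, with an unadjusted p of 0.0465 and an adjusted p of 1 in limma. That unadjusted p was 0.204 without Control male 1 and 0.230 without Western male 2 (limma). The difference in females was 0.13 ± 0.45 (-0.34 when the library labelled Control female 1 was left out and 0.59 when Control female 2 was), and the difference between the sexes, -0.998 ± 0.64, had an unadjusted p of 0.168 in limma.

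Oas1a is one of the enzymes that sense double-stranded RNA and activate the nuclease RNase L. It measured 3.67 and 3.31 in Control males, 3.49 (the library labelled Control female 1) and 3.88 in Control females, 4.15 and 3.86 in Western males and 3.88 and 3.81 in Western females. Without Control female 2 the diets did not overlap; with it they did. The diet difference was 0.34 ± 0.18 (SE, n = 4), 0.24 when the library labelled Control female 1 was left out and 0.43 when Control female 2 was. The other Oas genes did not all move with it. Oas2 lay higher by 1.04 ± 0.57 in Western males and Oas3 by 0.41 ± 0.30, whereas the difference of Oasl1 was -0.02 ± 0.36 (SE, n = 2 arrays a group).

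Usp18, the protease that takes Isg15 off proteins and damps signalling at the type I receptor, measured -0.59 and -0.53 in Control males and 0.84 and -0.08 in Western males. In females it measured -1.40 (the library labelled Control female 1) and 0.28 on the control diet and -0.33 and -1.18 on the Western diet. The male arrays were separated by diet, by 0.94 ± 0.63 (SE, n = 2 arrays a group), and the female control arrays spanned both Western ones. Isg15, the ubiquitin-like protein that is joined to other proteins during the response, lay higher in Western males by 0.80 ± 0.39 and differed by -0.02 ± 0.39 in females (-0.40 or 0.36 when the first or the second control array was left out). For the Ifit genes, whose proteins bind foreign RNA, the male difference was 0.56 ± 0.46 for Ifit1, 1.25 ± 0.66 for Ifit2 and 0.61 ± 0.50 for Ifit3. Their female differences were -0.30 ± 0.46, 0.32 ± 0.66 and -0.23 ± 0.50, and their signs turned with the control array that was left out. When it was the library labelled Control female 1 they were -0.76, -0.57 and -0.97, and when it was Control female 2 they were 0.17, 1.22 and 0.51. No Ifit gene had an unadjusted p under 0.05 in limma with all arrays; Ifit3 in females had one of 0.0384 (adjusted p = 0.257) when the library labelled Control female 1 was left out.

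Zbp1 and Ifi44 varied most among the type I targets, and 1 or 2 arrays set their range. Zbp1, a sensor of Z-form nucleic acid that can start necroptosis, measured 1.64 and 1.50 in Control males, -0.08 (the library labelled Control female 1) and 1.32 in Control females, 2.87 and 1.33 in Western males and 1.31 and 0.59 in Western females. Ifi44 measured -3.92 and -3.49 in Control males, -5.48 (the library labelled Control female 1) and -2.42 in Control females, -2.28 and -4.13 in Western males and -4.18 and -4.05 in Western females. Western male 1 was the highest array for both genes and the library labelled Control female 1 the lowest. The diet difference was 0.43 ± 0.47 for Zbp1 and 0.17 ± 0.75 for Ifi44 (SE, n = 4), both smaller than their errors. They were 0.08 and -0.60 when the library labelled Control female 1 was left out and 0.78 and 0.94 when Control female 2 was. The RNA sensors Ifih1 and Ddx58 had narrow ranges, 2.82 to 3.21 and 2.34 to 2.93, and Bst2, which tethers virus particles to the cell, ranged from 0.92 to 1.48.

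**Figure D2:**
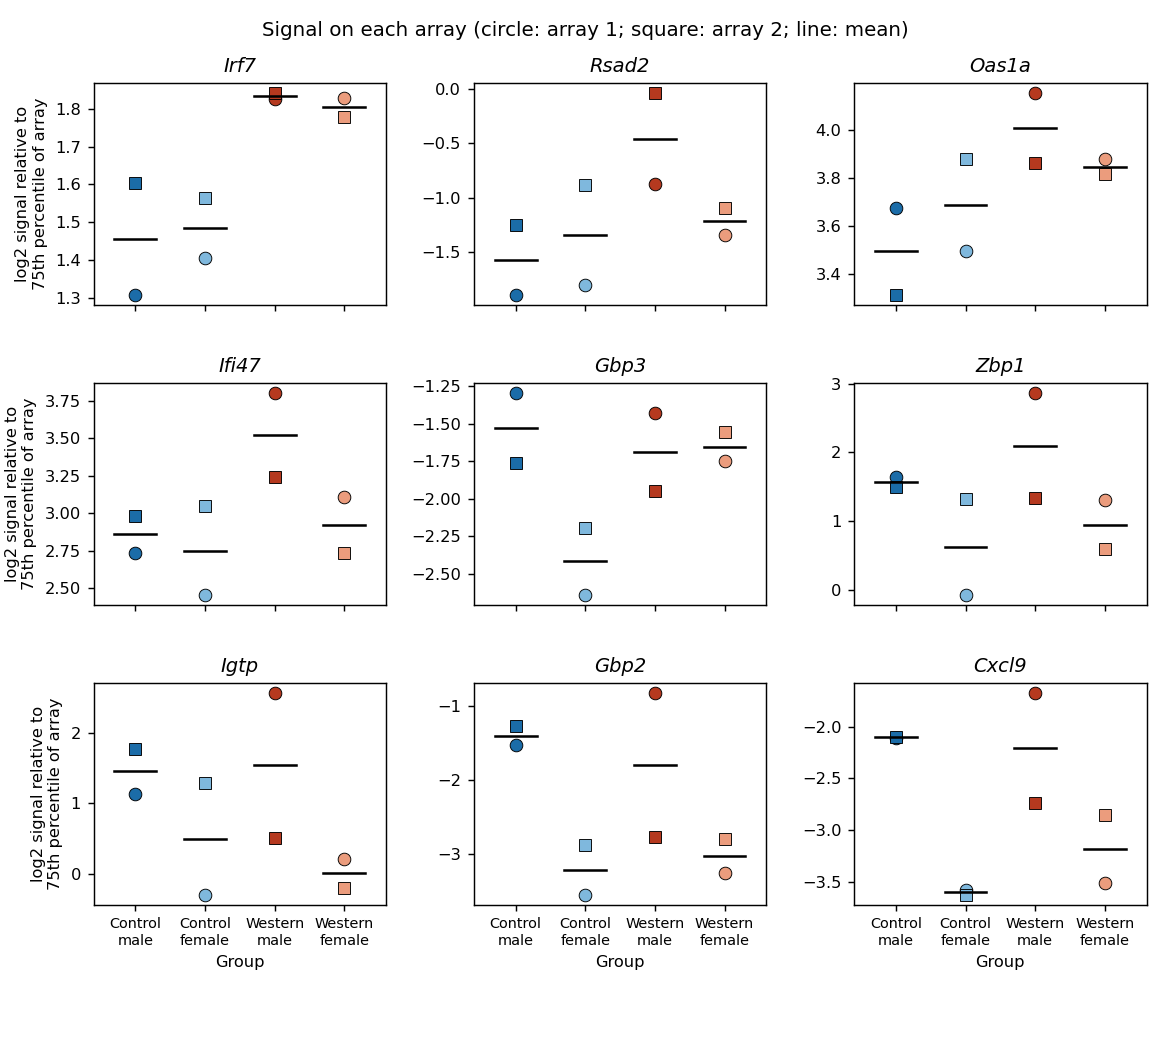
log2 signal relative to the 75th percentile of the array (vertical axis, with its own scale for each gene) in the 4 groups (horizontal axis) for 9 members; circles are array 1, squares array 2 and the line is the mean of both. The Irf7 arrays lie between 1.31 and 1.60 on the control diet and between 1.78 and 1.84 on the Western diet, while for Gbp2 and Cxcl9 both arrays of every female group lie below both arrays of Control males.

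Among the interferon gamma targets, Ifi47, an immunity-related GTPase, had the smallest unadjusted p for diet (0.116, limma). It measured 2.73 and 2.98 in Control males, 2.45 (the library labelled Control female 1) and 3.05 in Control females, 3.80 and 3.24 in Western males and 3.11 and 2.73 in Western females. The male arrays did not overlap between the diets, with a difference of 0.66 ± 0.32 (SE, n = 2 arrays a group), and the female arrays did. The diet difference over both sexes was 0.42 ± 0.23, 0.27 when the library labelled Control female 1 was left out and 0.57 when Control female 2 was.

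Gbp3, a guanylate-binding protein, measured -1.29 and -1.76 in Control males, -2.64 (the library labelled Control female 1) and -2.19 in Control females, -1.42 and -1.95 in Western males and -1.75 and -1.56 in Western females. Both Western female arrays lay above both Control female arrays, and the male arrays overlapped. The difference in females was 0.76 ± 0.30 (SE, n = 2 arrays a group), with an unadjusted p of 0.0453 and an adjusted p of 0.949 in limma. Without the library labelled Control female 1 it was 0.54, with an unadjusted p of 0.195 in limma, and without Control female 2 it was 0.99. With the replicate number as a block the unadjusted p was 0.0663 in limma.

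Igtp, an immunity-related GTPase that acts on vacuoles of intracellular parasites, measured 1.13 and 1.78 in Control males, -0.30 (the library labelled Control female 1) and 1.29 in Control females, 2.57 and 0.51 in Western males and 0.21 and -0.20 in Western females. Its 2 Western male arrays lay far apart, with Western male 1 the highest of the series. The diet difference was -0.20 ± 0.57 (SE, n = 4), and it was -0.60 or 0.19 when the first or the second Control female array was left out. Gbp2 measured -1.52 and -1.26 in Control males, -3.55 (the library labelled Control female 1) and -2.88 in Control females, -0.82 and -2.76 in Western males and -3.26 and -2.80 in Western females. Here too the Western male arrays lay far apart, and the diet difference was -0.11 ± 0.45. Cxcl10, a chemokine that attracts T cells through the receptor Cxcr3, measured -2.10 and -2.17 in Control males, -2.55 (the library labelled Control female 1) and -2.20 in Control females, -2.29 and -2.28 in Western males and -0.64 and -2.99 in Western females. Western female 1 was high and Western female 2 low for Cxcl10, and the diet difference was 0.20 ± 0.50.

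Between the sexes the interferon gamma targets lay mostly lower in females, whereas the type I targets had a median near 0; the difference between the gene groups was not tested. The median female minus male difference was -0.43 for the interferon gamma targets, with 10 of 11 lower in females, and -0.04 for the type I targets, with 14 of 24 lower. Across all genes it was 0.08, with 62.4% higher in females; with quantile normalization it was -0.02, with 46.8% higher, and the interferon gamma median was -0.56. With all arrays kept, no member and no other gene passed an adjusted p of 0.05 in limma (0%). At an unadjusted p under 0.05 limma then called 3.87% of all genes and 2 members, Cxcl9 and Gbp2. The 0% did not hold for genes outside the members without the library labelled Control female 1, a fit that leaves 1 array in that group. Without the library labelled Control female 1 the medians were -0.32 for the interferon gamma and 0.10 for the type I targets, and without Control female 2 they were -0.70 and -0.21. The interferon gamma median for sex was -0.30 without Western male 1, -0.81 without Western male 2 and -0.98 within slide 1, where the type I median was -0.27.

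All 4 arrays labelled female lay below all 4 male arrays for 3 members, Zbp1, Cxcl9 and Gbp2, and for 1.02% of all genes. The reverse was found for no member and for 2.01% of all genes. The separation was narrow for Zbp1, with 1.330 on Western male 2 and 1.324 on Control female 2. It was also narrow for Gbp2, with -2.76 on Western male 2 and -2.80 on Western female 2. Cxcl9, a chemokine that acts through the same receptor as Cxcl10, was described on every array only after its values were seen. It measured -2.11 and -2.10 in Control males, -3.58 (the library labelled Control female 1) and -3.63 in Control females, -1.67 and -2.74 in Western males and -3.51 and -2.86 in Western females. Its sex difference was -1.24 ± 0.29 (SE, n = 4 arrays a sex), a 2.36-fold lower signal in females, with an unadjusted p of 0.00481 and an adjusted p of 0.903 in limma. The sex difference of Gbp2 was -1.53 ± 0.45, with an unadjusted p of 0.0147 in limma, and that of Zbp1 -1.05 ± 0.47, with an unadjusted p of 0.0657. Without the library labelled Control female 1 the difference was -1.25 for Cxcl9, -1.36 for Gbp2 and -0.70 for Zbp1. Without Control female 2 these were -1.23, -1.70 and -1.40. A second, dimmer probe of Cxcl9 gave a sex difference of -0.71, in the same direction. Its arrays overlapped between the sexes, with -3.56 on Western male 2 and -3.23 on Control female 2. The arrays of the second probe of Zbp1 overlapped too, with -1.75 on Western male 2 and -1.02 on Control female 2.

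**Figure D3:**
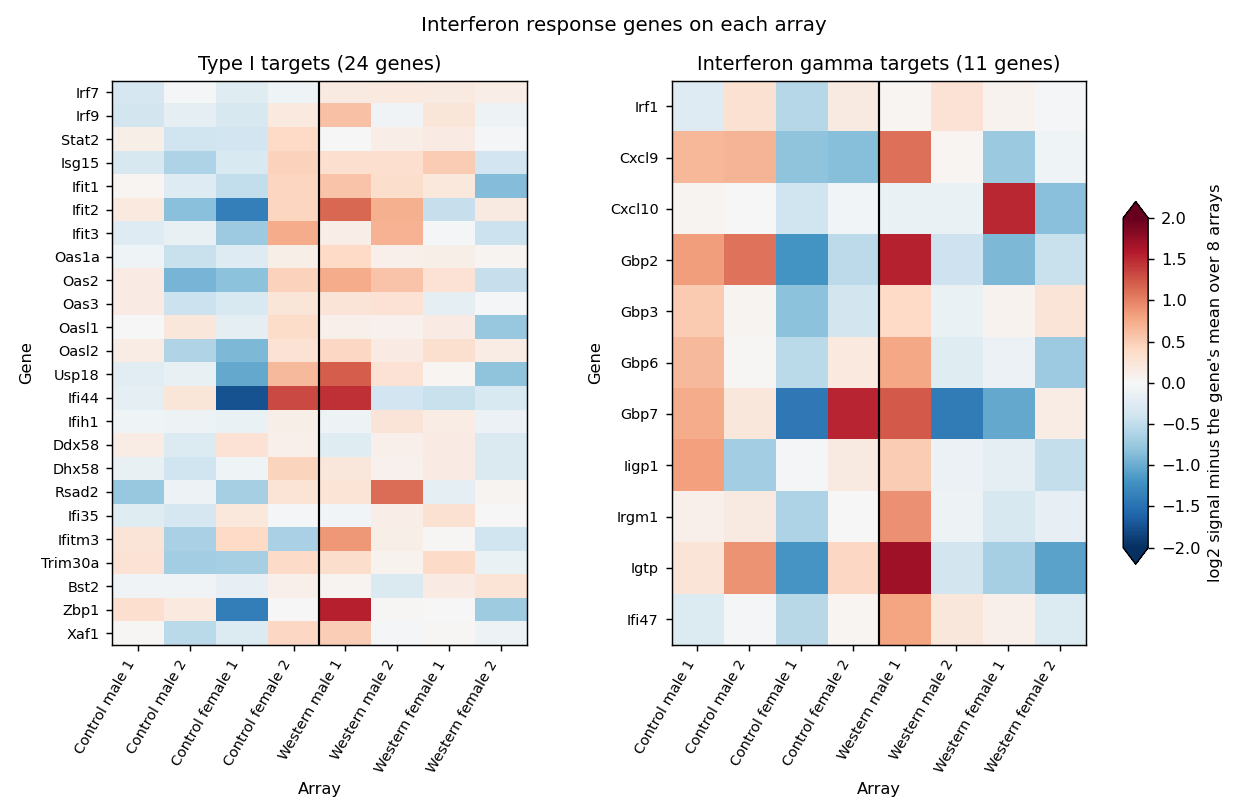
log2 signal of each gene minus its mean over the 8 arrays (colour, from -2 in blue to 2 in red), with genes in rows and arrays in columns; a vertical line separates the control from the Western diet. Western male 1 is the highest array for 17 of 35 members and the library labelled Control female 1 the lowest for 14.

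Single arrays stood out across many members. Western male 1 was the highest array for 17 of 35 members, 11 type I and 6 interferon gamma targets, and the lowest for 0. Across all genes it was the highest for 5.73% and the lowest for 15.1%. The library labelled Control female 1 was the lowest array for 14 members, 7 of each group, and for 10.3% of all genes. Control male 2 was the lowest for 11 members, of which 10 were type I targets, and for 14.1% of all genes. Control female 2 was the highest for 6 members and for 31.9% of all genes.

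The 2 gene groups did not order the arrays alike. With each gene centred on its mean over the 8 arrays, the type I targets had a median of -0.03 and -0.31 in Control males, -0.31 (the library labelled Control female 1) and 0.33 in Control females, 0.34 and 0.13 in Western males and 0.16 and -0.12 in Western females. The interferon gamma targets had a median of 0.53 and 0.18 in Control males, -0.62 (the library labelled Control female 1) and 0.03 in Control females, 0.79 and -0.13 in Western males and -0.20 and -0.28 in Western females. Control male arrays were thus below the middle for type I and above it for interferon gamma targets. The SD of these medians within groups was 0.28 for the type I and 0.42 for the interferon gamma targets. Between the 2 arrays of a group the largest gaps were those of the Control females for the type I targets and of the Western males for the interferon gamma targets.

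**Figure D4:**
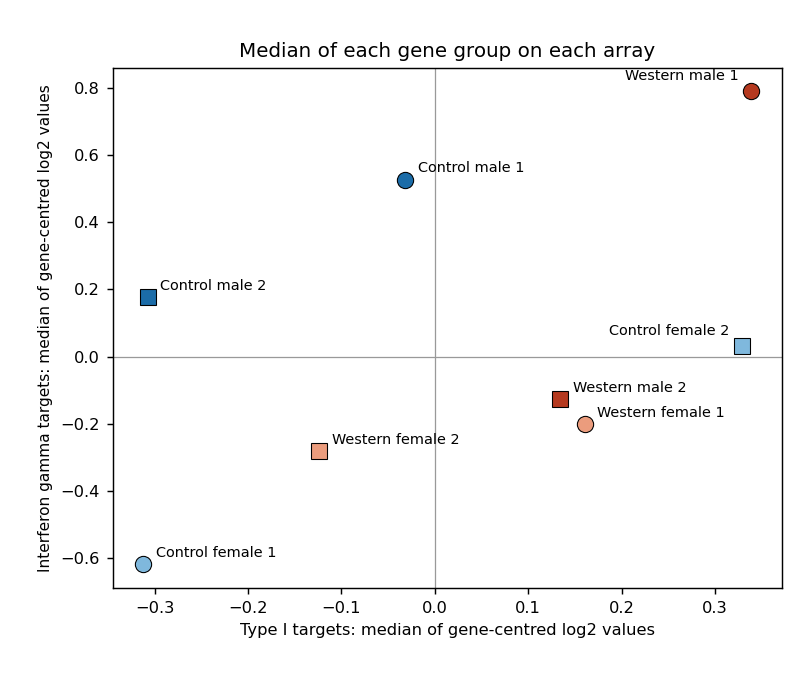
Median of gene-centred log2 values over 24 type I targets (horizontal axis) and over 11 interferon gamma targets (vertical axis), 1 point for each array, coloured by group; circles are array 1 and squares array 2. Western male 1 lies highest on both axes, at 0.34 and 0.79, and the library labelled Control female 1 lowest on both, at -0.31 and -0.62.

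Markers of some other cell types also stood apart on these arrays. The 4 mast cell markers (Mcpt1, Cpa3, Fcer1a and Kit, of which 2 were well above background on all arrays) had a gene-centred median of 2.14 on Western male 1 and -1.58 on the library labelled Control female 1. Their summed level ranged from -1.44 to -0.57 on the control and from -0.84 to 0.90 on the Western diet. The smooth muscle and fibroblast markers stood highest on Control male 1, with medians of 4.03 and 2.62, fat cell markers on Western female 2 with 4.37, and B and plasma cell markers on Western female 1, where Cxcl10 was high, with 1.29. The fat cell marker Cidec was not high on Western female 2, at 2.54 within its range of 2.02 to 3.99. Granulocyte markers (2 of 4 measured, S100a9 and Csf3r, with S100a9 well above background on 2 arrays) had a median of 1.88 on Western male 1. Red cell markers had one of 1.81 there, against -1.95 and -1.72 in Control females. T and NK cell markers (7 of 9 measured), the cells that make interferon gamma, had medians from -0.28 to 0.28. Single markers among them varied more. Gzmb, a protease of killer cells, measured 1.79 on Western male 1 and 1.33 on Control male 2. On Control male 1 it measured -0.22 and on Western male 2 0.16, within its female range of -0.71 to 0.31. The sex difference was -0.93 for Gzmb, -0.35 for Cd8a, -0.17 for Cd3g and -0.10 for Nkg7. It was 0.39 for Prf1, 0.09 for Cd3e and 0.08 for Cd4. The summed level of the T and NK cell markers ranged from 5.80 to 6.55 in males and from 5.76 to 6.60 in females. It was set mainly by the brightest of them, Cd4, at 5.47 to 6.41. The interferon gamma targets stood lower in females. Macrophage and dendritic cell markers (6 of 8 measured) ranged from 5.33 to 6.73 in males and from 4.73 to 6.00 in females on that summed scale. This sum was set mainly by Siglech, at 4.45 to 6.63. Their gene-centred medians were 0.32 on both Control male arrays and 0.04 and -0.15 in Western males. In females they were -0.23 (the library labelled Control female 1) and -0.47 on the control diet and -0.10 and 0.44 on the Western diet. The part of any of these cells in the interferon gene values was not tested.

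Of the rest of the pathway, genes that are not among the 39, no gene passed an adjusted p of 0.05 in any comparison. Among the ligands 8 of 14 were measured, and 7 of the 8 lay lower on the Western diet, with a median of -0.28, as did 60.2% of all genes. Without Control female 2 only 3 of the 8 lay lower, with a median of 0.01. Ifng itself, the gene of interferon gamma, was well above background on 2 arrays only and ranged from -7.80 to -4.53, and Ifnb1 was not measured. The 6 receptor subunits were measured on all arrays, and 3 were higher and 3 lower on the Western diet, with a median of 0.01 (5 higher and 0.12 without Control female 2). Of the 10 kinases and transcription factors, 5 were higher and 5 lower, with 2 higher when the library labelled Control female 1 was left out and 6 when Control female 2 was. Of the 10 sensors and adaptors 6 were higher on the Western diet, with a median of 0.05. Of the 4 inhibitors 3 were lower, among them Socs3, which blocks Jak kinases, with a diet difference of -0.59 ± 0.29 and an unadjusted p of 0.0868 in limma. In males 4 of 6 receptor subunits, 7 of 10 kinases and factors and 5 of 10 sensors lay higher on the Western diet, with medians of 0.09, 0.05 and 0.01. In females 2 of 6, 2 of 10 and 7 of 10 did, with medians of -0.07, -0.22 and 0.07. These female counts were 1, 0 and 3 without the library labelled Control female 1. They were 4, 7 and 7 without Control female 2. Of the ligands 2 of 8 lay higher in males and 1 of 8 in females, and of the inhibitors 2 of 4 and 0 of 4. Of all genes 47.8% lay higher in males and 36.6% in females.

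Probes of 1 gene did not always give the same diet difference. For Cxcl9 the tested probe gave 0.16 and the dimmer one -0.46, for Gbp6 they gave -0.16 and 0.21, and for Ddx58 -0.14 and 0.04. For Zbp1 both probes lay higher on the Western diet, by 0.43 and 0.22, and lower in females, by -1.05 and -1.38. The guanylate-binding proteins, the Oas genes and the immunity-related GTPases are families of close paralogs, and whether their probes also bind RNA of a paralog was not tested.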

How the data were processed

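Total RNA of 8 samples was measured on 8 single-colour (Cy3) Agilent arrays. Per the file headers, the array design was 026655 and the scans were read with Feature Extraction 10.7.3.1. Each deposited value is a processed spot signal, a linear intensity that was already background-subtracted by that software, as the headers record. The files record no normalization between arrays. The labels' protocols name the RNeasy Mini kit for extraction. The headers name the mouse build mm9, and promoter coordinates come from RefSeq's GRCm38.p6. The number of arrays limits the precision: 2 in each of 4 groups.

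Control spots (1377) and outlier spots (94 to 216 an array) were left out; no spot was saturated. Spots of 1 probe were averaged, values were log2 of the intensity minus the array's 75th percentile, and probe accessions were named through RefSeq's gene table (26412 of 39429 probes). A probe had to be well above background on 2 or more arrays (25733 were), and the brightest probe of each gene was tested (21303 genes, 14824 with a symbol). Limma 3.58.1 (R 4.3.3, data.table at version 1.17.8) fitted the group means, with 4 residual and 2.01 prior degrees of freedom and Benjamini-Hochberg adjustment at 0.05. Medians of gene groups are descriptions without a test. Summed levels are log2 of summed relative signals, so the brightest marker weighs most in them. The fit was tested on simulated data. The members, gene lists and tests were chosen with earlier results of these data known.

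Values on every array are given for the 4 transcription factors (Irf1, Irf7, Irf9 and Stat2) and, in each gene group, for the 3 members with the smallest unadjusted p for diet and the 3 with the widest range among those measured on all arrays. Cxcl9 and Irgm1 lie outside this rule; their values were known when they were picked.

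Slide 1 held array 1 of every group, slide 2 held Western male 2, and slide 3 held the other arrays; slide 3 was scanned on another day. The alternatives were leaving out each array, the replicate number, scan day or slide as a block, values within a slide, normexp background correction (offset 50) from the median signals, since mean signals were not used here, quantile normalization, other filters on dim probes, the mean of all probes, and the fit of 1 sex alone. Same-numbered arrays of different groups had correlations of their deviations from -0.119 to 0.352, not all above 0.1, and no label says that a number marks a shared origin, so the numbers were not taken to pair the arrays; they largely follow the slide. A gene of the pathway is not reported here.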

Additional observations from a re-analysis of the deposited data

Results flagged for a closer look

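Values of 1 array that lay far from the other 3 of its diet are given here; of 74 such sets of 4 arrays examined, chance alone flags about 1 in 20. Oasl1 measured 3.60 on Western female 2, against 4.45 to 4.52 on the other Western arrays. Ifi44 measured -2.28 on Western male 1, against -4.18 to -4.05 on the other Western arrays. Ifih1 measured 3.07 on Control female 2, against 2.82 to 2.86 on the other control arrays. The gene-centred median of the interferon gamma targets was 0.79 on Western male 1, against -0.28 to -0.13 on the other Western arrays.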

How the results depend on the processing

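No member passed an adjusted p of 0.05 in limma under any alternative that was fitted, and the medians of the type I targets for diet, for diet in males and for sex moved by less than the spread between arrays under each. Over the sets that left out 1 array each, the median of the interferon gamma targets for diet in males ranged from -0.42 to 0.44 (lowest without Western male 1, highest without Western male 2), that of the type I targets for diet in females from -0.35 to 0.39, and those for the difference between the sexes in the diet effect from -0.72 to -0.15 (type I) and from -0.68 to 0.45 (interferon gamma). With the slide as a block, the interferon gamma median in males was 0.54 and the medians for the difference between the sexes were -0.73 (type I) and -0.60 (interferon gamma). Within slide 1, with 1 array a group and no test, the interferon gamma median was 0.44 for diet in males and -0.98 for sex, and the type I median was 0.51 for diet in females and 0.083 for the difference between the sexes. Within slide 3, which held 1 array of each female group, the medians for diet in females were -0.42 (type I) and -0.31 (interferon gamma). The cause of these changes was not tested. With the replicate number as a block, the type I median for diet was 0.25 and no call at an adjusted p of 0.05 changed. At an unadjusted p under 0.05 limma then called 1 member for diet, 2 for diet in males, 0 for diet in females, 1 for the difference between the sexes and 2 for sex, against 0, 1, 1, 0 and 2 without the block. Over all 21303 genes the counts with the block were 1036, 317, 1157, 373 and 1051, in the same order. Without the block they were 927, 277, 1094, 345 and 824.

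The diet difference of 7 named genes changed sign when 1 array was left out: it ranged from -0.0123 to 0.36 for Irf1, -0.064 to 0.33 for Stat2, -0.60 to 0.94 for Ifi44, -0.0509 to 0.79 for Usp18, -0.72 to 0.31 for Igtp, -0.59 to 0.38 for Gbp2 and -0.38 to 0.79 for Cxcl10. With normexp background correction that of Ifi44 was -0.0101. For Igtp it was 0.46 with the slide as a block and 0.97 within slide 1; for Gbp2 it was 0.0098 with the scan day and 0.50 with the slide as a block, 0.50 within slide 1 and 0.23 with quantile normalization. Signal over background limits Ifit2, Gbp7 and Ifng, which were not well above background on every array.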

Other observations

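The other type I targets are given here by their diet difference, each with its standard error and 2 arrays a group. In males it was 0.69 ± 0.50 for Ifitm3, a membrane protein that hinders viral entry, and 0.44 ± 0.28 for Dhx58, a regulator of RNA sensing. It was 0.48 ± 0.35 for Xaf1, 0.41 ± 0.48 for Trim30a and 0.33 ± 0.22 for Ifi35. In females it was -0.07 ± 0.50 for Ifitm3, -0.24 ± 0.28 for Dhx58, -0.11 ± 0.35 for Xaf1, 0.26 ± 0.48 for Trim30a and 0.05 ± 0.22 for Ifi35. The sign of each of these 5 female differences depended on which Control female array was kept. Oasl2, a relative of the Oas enzymes, had nearly equal differences in both sexes, 0.52 ± 0.45 in males and 0.54 ± 0.45 in females, the latter -0.06 when the library labelled Control female 1 was left out and 1.13 when Control female 2 was.

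Among the other interferon gamma targets, the immunity-related GTPase Irgm1, a regulator of autophagy, measured 0.39 and 0.46 in Control males, -0.33 (the library labelled Control female 1) and 0.27 in Control females, 1.21 and 0.19 in Western males and -0.03 and 0.13 in Western females. Its female minus male difference was -0.55 ± 0.27 (SE, n = 4 arrays a sex), and its second probe gave -0.53. Irgm1 was described on every array after its values were seen. Gbp6 gave a sex difference of -0.60 ± 0.34 and Iigp1 one of -0.26 ± 0.37. When the library labelled Control female 1 was left out, these 3 sex differences were -0.40, -0.41 and -0.21, and when Control female 2 was, -0.70, -0.78 and -0.32. Gbp7, measured above background on 5 arrays, had a diet difference of -0.53 ± 0.86, smaller than its error.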
